A study of Mus musculus with 2 samples.

Results

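Interferon response genes were followed in liver RNA of BALB/c mice collected on day 11 after birth, in 1 library labelled WT (the wild-type library) and 1 labelled SRSF2-/- (the knockout library). The series' design text calls the knockout liver specific. The sources used here do not give the promoter that drove the deletion, the deleted part of the gene or the number of animals behind each library. SRSF2 is a serine/arginine-rich protein that binds exons during the splicing of messenger RNA precursors. The genes were a fixed list of 35 symbols, and the RefSeq accessions of the deposited tables matched 34 of them, each through 1 accession, out of 26440 genes in all. Mx1 was not matched and is not analysed here. This list and the other gene lists below were chosen with earlier results of these data known. With 1 library per genotype no spread between animals could be measured and no test was possible, so every value describes these 2 libraries. Levels are FPKM, reads normalised for transcript length and library size. Brackets after a fold give an exact 95% Clopper-Pearson interval of the read ratio, which covers counting error only.

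Interferons are secreted proteins that cells release when sensors such as RIG-I and MDA5 recognise viral RNA. Type I interferons act through JAK1 and TYK2 on a complex that holds STAT2 and IRF9 and binds interferon-stimulated response elements. Interferon gamma acts on gamma-activated sites and raises guanylate-binding proteins, immunity-related GTPases and antigen presentation genes. In liver, hepatocytes, Kupffer cells and endothelial cells can all respond to interferon, and in whole-liver RNA a change in the number of responding cells and a change in RNA per cell cannot be told apart.

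The knockout library held more RNA of many antiviral effector genes, while the immunity-related GTPase and antigen presentation genes of the list did not pass 2-fold as deposited. Of the 34 measured genes, the knockout level exceeded the wild-type level by 2-fold or more for 17 and was under it by that much for 0, on the log2(FPKM + 1) scale, which is used for the 2-fold rule throughout. Among all 12477 genes that reached 1 FPKM in a library, the shares were 19.2% higher and 2.95% lower. By a 4-fold rule, 8 of the 34 were higher, beside 2.76% of all tested genes. The median log2 ratio of the interferon response genes was 1.06, against 0.55 over all tested genes. Because 84.5% of the tested genes had a log2 ratio above 0, counts are also given after centring on that median of all genes. Centred, 11 of the 34 were higher by 2-fold or more and 3 were lower (Igtp, Zbp1 and Ifitm3), beside 5.67% and 6.66% of all tested genes. All 34 passed the FPKM filter, Ifi44 only through its knockout value.

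**Figure D1:**
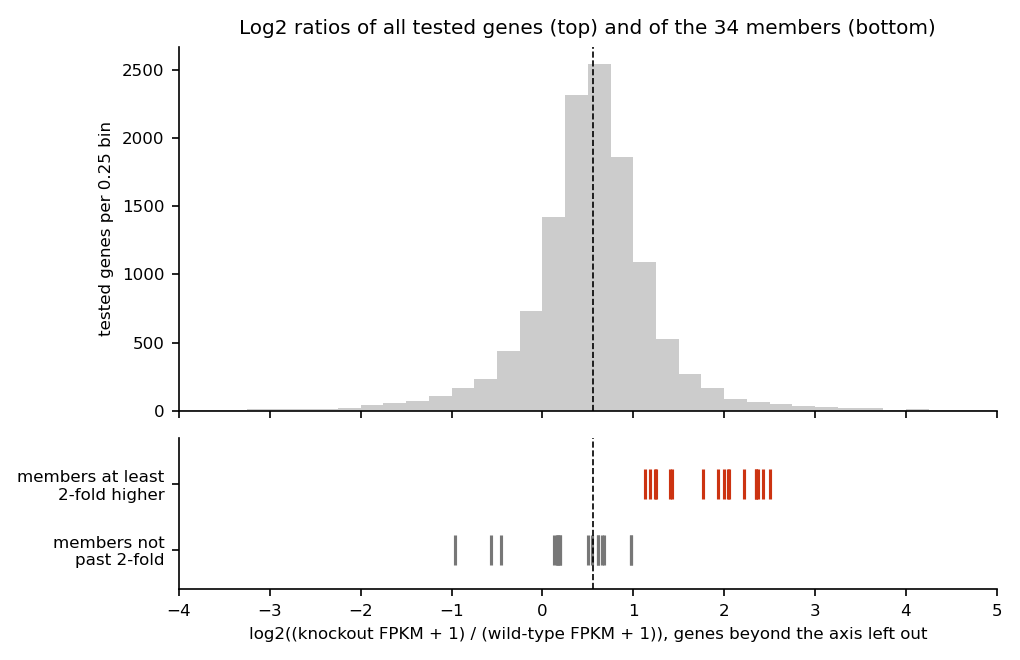
Histogram of the log2 ratio, knockout over wild-type with 1 FPKM added to each level, over all tested genes (top, genes per bin of 0.25) and marks for the 34 interferon response genes (bottom, red for at least 2-fold higher and grey for not past 2-fold). The dashed line is the median of all tested genes, 0.55. The 17 red marks lie between 1.13 and 2.50.

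The wild-type and knockout tables held 22407743 and 22111605 reads. Srsf2 itself stood at 27.9 and 11.8 FPKM, lower in the knockout library as its label says. The libraries also differed in sex-linked RNA (Xist at 27.4 and 0.0138 FPKM, and 4 Y-linked genes at 1 and 1866 reads in sum) and in RNA of other tissues, since the summed level of 4 measured exocrine pancreas markers was 2.90 and 334 FPKM and that of 5 skeletal muscle markers 0.0661 and 50.8 FPKM. The part of these differences in the interferon response values was not tested. All 8 hepatocyte markers had reads in both libraries, and their summed level was 94715 and 45912 FPKM, with Alb, which encodes serum albumin, at 50399 and 25492 FPKM. Of the 8, 3 were at least 2-fold lower as deposited and 6 after centring, beside 2.95% and 6.66% of all tested genes. Tat, a tyrosine-degrading enzyme, was 3.15-fold higher (3.07 to 3.23). The part of this difference in the interferon response values was not tested.

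Promoter sequence is shown because response element letters were more frequent in the list than among all genes, both in genes that were higher and in genes that were not. RefSeq promoters of build GRCm38.p6 were found for 26 of the 34 genes, each reaching from upstream of the start site to 50 bases after it. GAAA, any 2 bases and GAAA again, the core letters of the interferon-stimulated response element, were sought on both strands, with overlapping matches allowed, so that a match on the other strand reads TTTC, any 2 bases and TTTC. They stood in a promoter of 15 of the 26 genes (57.7%), against 3.99% of all 27025 genes with a promoter and 3.44% of all promoters of this length. The 6 stretches shown first belong to genes at least 2-fold higher and the last 2 to genes not past 2-fold. Each runs in the direction of transcription, ends before the start site and carries the matching letters in capitals.
Ifit1, chr19:34640765-34640833, plus strand: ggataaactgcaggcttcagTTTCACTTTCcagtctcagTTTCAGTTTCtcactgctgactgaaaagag
Ifit3, chr19:34583353-34583436, plus strand: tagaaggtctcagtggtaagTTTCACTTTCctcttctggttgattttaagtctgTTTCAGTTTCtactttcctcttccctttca
Isg15, chr4:156200855-156200916, minus strand: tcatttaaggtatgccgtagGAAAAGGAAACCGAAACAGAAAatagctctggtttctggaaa
Oas1a, chr5:120907526-120907565, minus strand: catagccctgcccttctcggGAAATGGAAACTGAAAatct
Rsad2, chr12:26456543-26456592, minus strand: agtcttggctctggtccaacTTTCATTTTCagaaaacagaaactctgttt
Gbp3, chr3:142559979-142560034, plus strand: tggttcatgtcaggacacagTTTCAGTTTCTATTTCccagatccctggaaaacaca
Igtp, chr11:58199502-58199551, plus strand: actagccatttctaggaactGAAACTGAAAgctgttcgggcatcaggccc
B2m, chr2:122147528-122147577, plus strand: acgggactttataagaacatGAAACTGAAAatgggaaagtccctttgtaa
In Ifit1 and Ifit3 the letters stand in a pair, in Isg15, Oas1a and Gbp3 as overlapping repeats, and in Rsad2, Igtp and B2m once. They occurred in 7 of 14 genes at least 2-fold higher (50%) and in 8 of 12 not past 2-fold (66.7%), so they were no more frequent in the higher genes. In Ifih1, Ddx58 and Ifitm3, all not past 2-fold, the matches lie after the start site. The letters TTCNNNGAA of the gamma-activated site, which read the same on both strands, stood in 8 of the 26 genes (30.8%), against 9.55% of all genes with a promoter. Of these 8, 3 were at least 2-fold higher (Oas1a, Isg20 and Ifit2) and 5 were not past 2-fold (Ifitm3, Bst2, Irf1, Igtp and Ifi35). In Bst2 and Ifitm3 the site overlaps a response element match. A match is a description of letters, not evidence that a factor binds there.

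**Figure D2:**
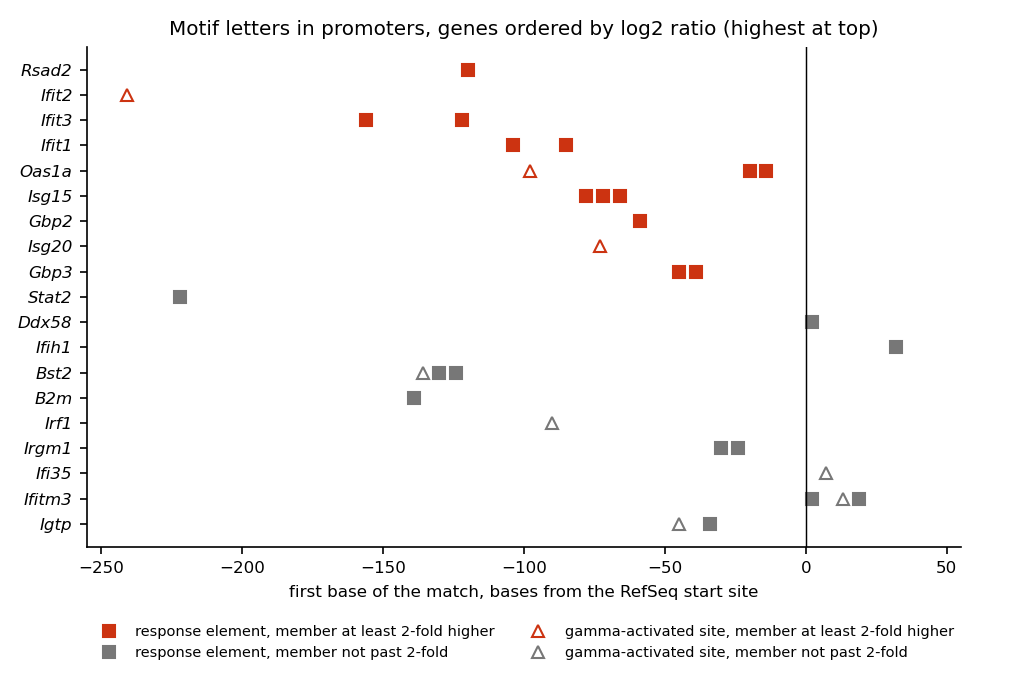
Position of each motif match (horizontal axis, bases from the RefSeq start site) in the promoters of the interferon response genes that hold one, ordered by log2 ratio with the highest at the top. Filled squares are response element letters and open triangles gamma-activated site letters, in red for genes at least 2-fold higher and grey for the others. Squares appear in both colours.

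Among the transcription factors, Irf7 differed most. Irf7, the factor that amplifies type I interferon production, had 313 wild-type and 1880 knockout reads, or 6.35 and 38.6 FPKM. It was 6.08-fold higher (5.39 to 6.87), and its log2 ratio of 2.43 ranked 211 of the 12477 tested genes. The other 3 factors did not pass 2-fold. Stat2 and Irf9, which act in the type I complex, lay at 12.1 and 19.9 FPKM and at 5.95 and 9.59 FPKM, with log2 ratios of 0.68 and 0.61 that were 0.12 and 0.05 after centring. Irf1, a factor strongly induced by interferon gamma, stood at 9.04 and 10.3 FPKM, a log2 ratio of 0.17 that was -0.39 after centring. Irf7 was thus separated from the other factors by more than the counting intervals, which reached at most 1.83-fold for Irf9.

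Of the 4 nucleic acid sensors, 1 was at least 2-fold higher (Dhx58) and 0 were after centring. These counts are near the shares of all tested genes, 19.2% and 5.67%. Ddx58, which encodes RIG-I, stood at 7.10 and 11.4 FPKM, 1.60-fold higher (1.48 to 1.74). Ifih1, which encodes MDA5, stood at 4.15 and 6.50 FPKM, 1.57-fold higher (1.41 to 1.74). Both had log2 ratios close to the median of all genes (0.06 and -0.01 after centring). Dhx58, which encodes the regulatory sensor LGP2, had 83 and 255 reads, or 1.30 and 4.03 FPKM, and was 3.11-fold higher (2.42 to 4.03). It had the lowest log2 ratio of the 17 genes at least 2-fold higher (1.13), and its centred value of 0.58 was not past 2-fold. Zbp1, a sensor of Z-form nucleic acids that can trigger necroptosis, lay the other way at 12.9 and 8.39 FPKM, 1.54-fold lower (1.36 to 1.74). Its log2 ratio was -0.57, or -1.12 after centring.

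All 3 IFIT genes, whose products bind foreign RNA and block its translation, were at least 2-fold higher, also after centring. The shares of all tested genes were 19.2% and 5.67%. Ifit1 had 104 and 729 reads, or 1.49 and 10.5 FPKM, 7.09-fold higher (5.77 to 8.80). Ifit2 had 121 and 1076 reads, or 1.09 and 9.82 FPKM, and carried the highest fold of the 34 genes. It was 8.999-fold higher (7.45 to 11.0). Ifit3 had 167 and 1060 reads, or 3.15 and 20.3 FPKM, 6.43-fold higher (5.45 to 7.61). The intervals of the 3 genes overlap. Ifit3b, a close copy of Ifit3 from the wider list, stood at 1.32 and 7.77 FPKM, and the sources used here do not give how reads shared between such copies were counted.

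The genes of the ISG15 system were higher as well. Isg15, a ubiquitin-like protein that is attached to other proteins, had 91 and 353 reads, or 4.54 and 17.8 FPKM, 3.93-fold higher (3.11 to 4.999). Usp18, the protease that removes ISG15 and also dampens signalling at the type I receptor, had 356 and 1592 reads, or 7.58 and 34.3 FPKM, 4.53-fold higher (4.03 to 5.09). Irf7 and Usp18 had the highest knockout levels of the 17 genes past 2-fold. Isg20, a 3′ to 5′ exonuclease, stood at 1.40 and 4.65 FPKM, 3.32-fold higher (2.48 to 4.50), with a centred log2 ratio of 0.68 that was not past 2-fold. From the wider list, Ube2l6, the conjugating enzyme for ISG15, stood at 44.2 and 79.9 FPKM, a log2 ratio of 0.84.

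In the OAS family, whose members make or resemble the enzymes of 2′-5′ oligoadenylate that activates RNase L, 3 of 4 genes were at least 2-fold higher, before and after centring. The shares of all tested genes were 19.2% and 5.67%. Oas1a had 79 and 479 reads, or 1.58 and 9.68 FPKM, 6.14-fold higher (4.83 to 7.89). Oasl1, which restrains Irf7 translation, was found at 1.08 and 7.30 FPKM, 6.76-fold higher (5.20 to 8.91), and Oasl2 at 1.88 and 13.6 FPKM, 7.28-fold higher (6.15 to 8.66). Oas2 lay just outside the rule with a log2 ratio of 0.97, at 1.19 and 3.30 FPKM and a plain ratio of 2.77 (2.25 to 3.43). Mx2, a dynamin-like GTPase, was just outside as well, with a log2 ratio of 0.98 at 1.01 and 2.97 FPKM and a plain ratio of 2.93 (2.20 to 3.94). For these low genes the added 1 FPKM understates the ratio. By the whole read-ratio interval, with no pseudocount, Oas2 and Mx2 were past 2-fold, which made 19 of 34 higher and 0 lower, beside 20.9% and 2.81% of all tested genes.

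Membrane-associated effectors lay on both sides. Rsad2, which encodes viperin, a radical-SAM enzyme on lipid droplets and the endoplasmic reticulum, had 162 and 1370 reads, or 1.61 and 13.8 FPKM. It was 8.56-fold higher (7.27 to 10.1), and its log2 ratio of 2.50, the highest of the 34 on that scale, ranked 197 of 12477. Bst2, which encodes the virion-retaining protein tetherin, stood at 52.4 and 60.1 FPKM, a log2 ratio of 0.19 (-0.36 after centring). Ifitm3, which blocks the fusion of viruses in endosomes, was abundant and lower in the knockout library at 488 and 356 FPKM, 1.37-fold lower (1.33 to 1.42). Its log2 ratio of -0.45 was -1.01 after centring. The neighbouring family members Ifitm2 and Ifitm1 lay at 292 and 227 FPKM and at 18.1 and 40.5 FPKM, and reads shared within this family may be divided in an unknown way.

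Of the 6 other induced genes, 3 were at least 2-fold higher and 1 was after centring, beside 19.2% and 5.67% of all tested genes. Rtp4, a chaperone-like protein that binds RNA during infection, had 286 and 1194 reads, or 6.85 and 29.0 FPKM, 4.22-fold higher (3.71 to 4.82), and was past 2-fold after centring too. Xaf1, a pro-apoptotic partner of XIAP, stood at 1.34 and 5.29 FPKM, and Ifi44 at 0.570 and 3.16 FPKM, 3.94-fold (3.14 to 5.03) and 5.54-fold higher (4.01 to 7.83). Centring left both under 2-fold, at 0.87 and 0.85. Parp14, a mono-ADP-ribosyltransferase, stood at 2.84 and 4.42 FPKM. Ifi27 and Ifi35 had intervals that include equal levels, from 0.904 to 1.43 and from 0.931 to 1.32, at 5.30 and 6.01 FPKM and at 6.98 and 7.74 FPKM. The log2 ratios of Parp14, Ifi27 and Ifi35 were 0.50, 0.16 and 0.13 and changed sign after centring. Ifi27l2a, which has carried the symbol Ifi27 in the past and was counted on the wider list, stood at 5.44 and 19.8 FPKM.

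**Figure D3:**
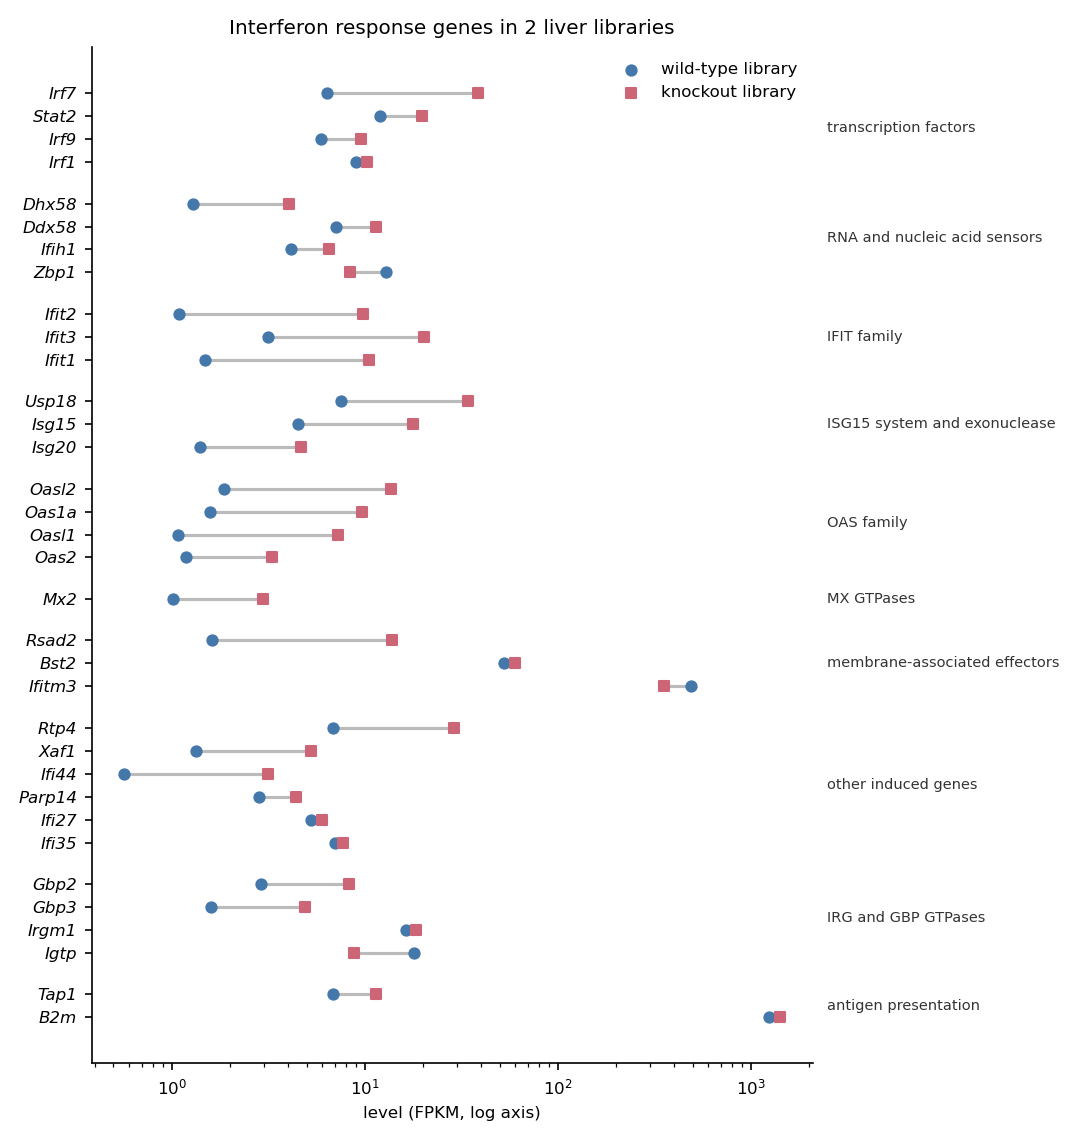
Level of each of the 34 interferon response genes (FPKM, log axis) in the wild-type library (blue circles) and the knockout library (red squares), grouped by role, with 1 value per library. Rsad2, the IFIT genes and Oasl2 show long gaps from near 1 to 3 FPKM up to near 10 to 20 FPKM, while Bst2, Ifitm3 and B2m sit at high levels with short gaps.

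Interferon-inducible GTPases lay on both sides as well. Gbp2 and Gbp3, guanylate-binding proteins that attack pathogen-containing vacuoles, lay at 2.90 and 8.25 FPKM and at 1.60 and 4.90 FPKM. They were 2.85-fold (2.41 to 3.37) and 3.06-fold higher (2.50 to 3.76), and centring left both under 2-fold. Igtp, an immunity-related GTPase, had 968 and 465 reads, or 18.0 and 8.77 FPKM, 2.06-fold lower (1.84 to 2.30). With a log2 ratio of -0.96 it lay just outside the 2-fold rule, and at -1.52 after centring it was past it. Irgm1, a regulatory member of the same family, stood at 16.3 and 18.3 FPKM, a log2 ratio of 0.16 (-0.39 after centring). Of the 4 immunity-related GTPases on the wider list, Irgm2 stood at 17.4 and 13.1 FPKM, Iigp1 at 73.1 and 66.2 FPKM, Tgtp1 at 9.30 and 6.54 FPKM and Ifi47 at 17.2 and 8.28 FPKM. These 4 are gathered here after their values were seen. Over the 6 immunity-related GTPases the log2 ratio was above 0 for 1 gene, beside 84.5% of all tested genes, and after centring for 0. As deposited 0 of the 6 were past 2-fold, and after centring 3 were lower (Igtp, Ifi47 and Tgtp1), beside 6.66% of all tested genes. Over the 7 measured guanylate-binding genes, also gathered afterwards, the log2 ratio was above 0 for all 7 and for 6 after centring. As deposited, all 7 above 0 is near the 84.5% of all tested genes. At least 2-fold higher were 5 as deposited and 0 after centring, beside 19.2% and 5.67%. Of these 5, Gbp4 and Gbp8 passed the filter only through their knockout value. Members of both families are similar in sequence, so the division of reads within each is uncertain.

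The antigen presentation genes did not pass 2-fold. Tap1, a subunit of the peptide transporter, stood at 6.86 and 11.4 FPKM, 1.66-fold higher (1.49 to 1.85), a centred log2 ratio of 0.10. B2m, the light chain of MHC class I, was the most abundant of the 34 genes at 1235 and 1411 FPKM, 1.14-fold higher (1.12 to 1.16). Its log2 ratio of 0.19 was -0.36 after centring. Of 16 further MHC class I presentation genes, 0 were past 2-fold in either direction before or after centring, and their median log2 ratio was 0.12 (-0.43 after centring). Among all tested genes 19.2% were higher and 2.95% lower, and 5.67% and 6.66% after centring. The class I heavy chain gene H2-D1 stood at 114 and 161 FPKM and the immunoproteasome gene Psmb8 at 21.7 and 18.1 FPKM, both chosen here after their values were seen. By the naming rule, the most abundant gene, Calr, stood at 478 and 470 FPKM, and the members with the largest log2 ratios, H2-M3 and Psme1, at 0.926 and 2.11 FPKM and at 63.8 and 103 FPKM.

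**Figure D4:**
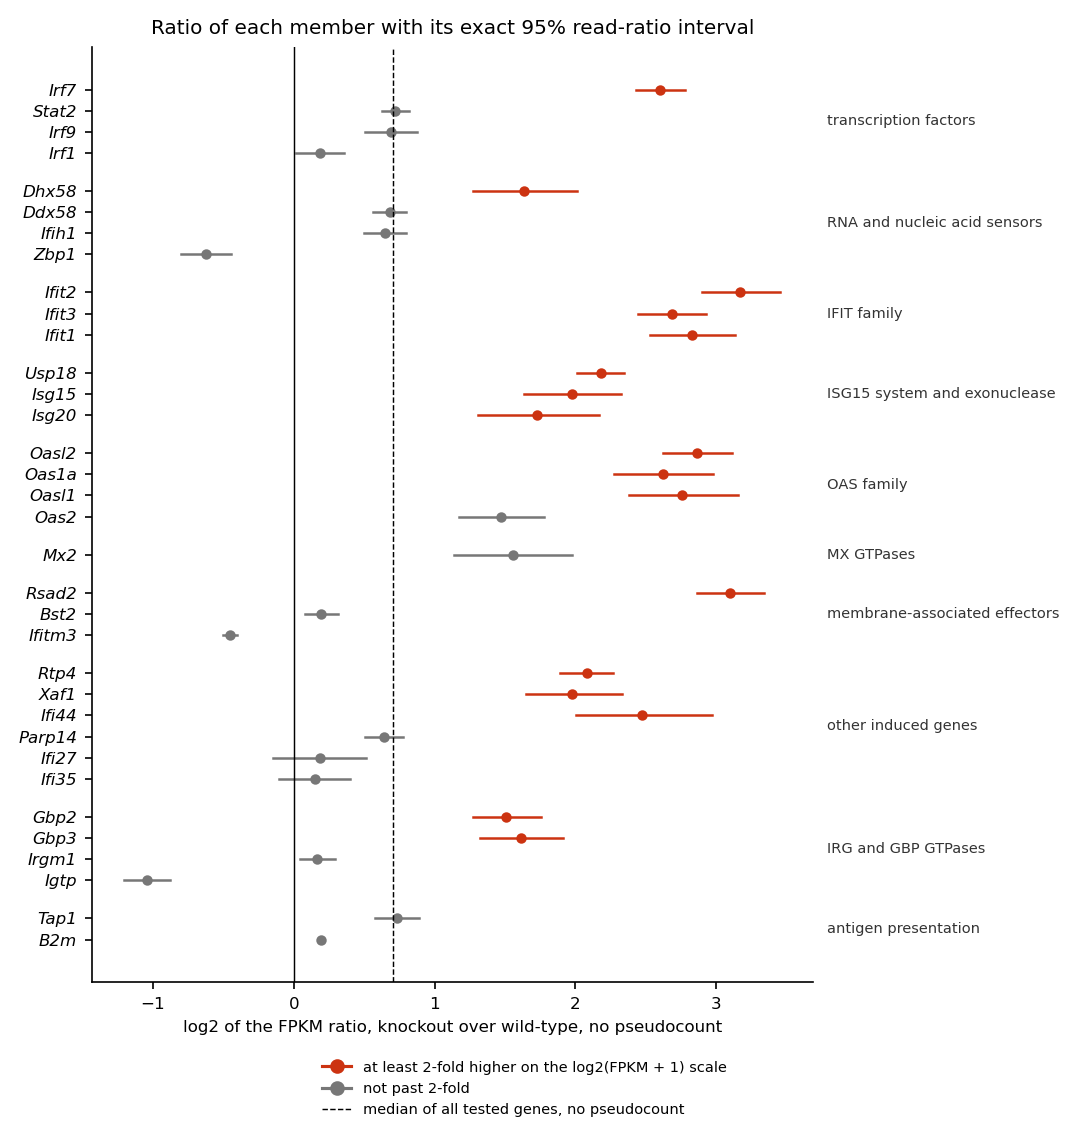
Log2 of the plain FPKM ratio, knockout over wild-type, for each of the 34 interferon response genes grouped by role, with the exact 95% interval of the read ratio as a bar (counting error only). Red marks genes at least 2-fold higher on the log2(FPKM + 1) scale, grey the others, and the dashed line is the median of all tested genes without a pseudocount, 0.70. The IFIT genes, Oas1a, Oasl1, Oasl2, Rsad2 and Irf7 stand farthest right, and Igtp, Zbp1 and Ifitm3 lie left of 0.

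The genes at least 2-fold higher were mostly low in wild-type liver. Their wild-type levels ranged from 0.570 to 7.58 FPKM with a median of 1.60, and their knockout levels from 3.16 to 38.6 FPKM with a median of 9.82. The 17 not past 2-fold ranged from 1.01 to 1235 FPKM in the wild-type library with a median of 7.10, and from 2.97 to 1411 FPKM in the knockout library with a median of 9.59. In the knockout library the 2 groups thus had near-equal medians. The groups were formed by the ratio of these same levels, so their medians are not independent of that split. With a division at 5 FPKM in the wild-type library, chosen after the values were seen, 14 of 18 genes below it and 3 of 16 at or above it were at least 2-fold higher. Over all tested genes the same shares were 23.1% and 14.4%. The 3 at or above 5 FPKM were Irf7, Usp18 and Rtp4. The summed level of all 34 genes was 1932 and 2191 FPKM, a ratio of 1.13, most of it from B2m and Ifitm3. Without these 2 it was 208.5 and 424 FPKM, a ratio of 2.03.

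Transcripts of the interferons themselves were near or at 0 reads. Of the 10 ligand genes on the list, 9 had 0 wild-type reads, 5 had 0 knockout reads and 0 passed the FPKM filter. Ifnb1, the interferon beta gene, had 0 reads in both libraries, which allows up to 3 reads in each. Ifng had 4 and 3 reads. Ifna2 had 0 and 2 reads, Ifna4 and Ifnl3 each 0 and 1, and Ifnk, an epithelial type I interferon, 0 and 7. Over all 13 interferon alpha genes in the tables there were 0 and 3 reads, and these near-identical genes share reads. A difference in ligand RNA was not detectable at this depth, apart from the 7 reads of Ifnk against a limit of 3.

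Receptor and signalling genes past 2-fold as deposited were not past it after centring. Of 5 receptor chains past the filter, Ifngr1, the ligand-binding chain for interferon gamma, was measured at 21.4 and 57.8 FPKM, 2.70-fold higher (2.53 to 2.89), and Il10rb, shared with interferon lambda receptors, at 7.31 and 16.0 FPKM. These were the 2 at least 2-fold higher, and 0 were after centring, beside 19.2% and 5.67% of all tested genes. Ifnlr1, the specific chain of the interferon lambda receptor, did not pass the filter, with 11 and 89 reads or 0.103 and 0.846 FPKM, a plain ratio of 8.19 (4.36 to 16.99). The type I receptor chains Ifnar1 and Ifnar2 lay at 8.03 and 13.2 FPKM and at 23.6 and 18.5 FPKM. Among 4 kinases and STATs, Jak2 was the 1 at least 2-fold higher, at 2.998 and 7.52 FPKM, and 0 were after centring. These counts are near the shares of all tested genes, 19.2% and 5.67%. Jak1 stood at 23.9 and 43.9 FPKM, and Stat3, the most abundant of the 4 by mean level, at 42.4 and 39.4 FPKM.

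Genes that sense nucleic acids upstream of interferon, and the factors they activate, included 6 of 14 at least 2-fold higher and 0 lower, beside 19.2% and 2.95% of all tested genes. After centring these counts were 0 and 1, beside 5.67% and 6.66%. Irf8 and Irf5, factors of myeloid and dendritic cells, lay at 4.18 and 12.4 FPKM and at 3.31 and 9.42 FPKM. The others were Tlr7, Tlr9, Tmem173 (STING) and Ticam1. Of these, Tlr7 (0.879 and 3.49 FPKM) and Tlr9 (0.304 and 2.04 FPKM) passed the filter only through their knockout value. Mavs, the mitochondrial adaptor of RIG-I and MDA5 and the most abundant of this list, stood at 22.3 and 14.8 FPKM, 1.51-fold lower (1.40 to 1.62). Its centred log2 ratio of -1.12 was the 1 past 2-fold.

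Among genes that restrain the response, 4 of 10 were at least 2-fold higher and 0 lower, with 1 higher after centring, beside the same shares of all tested genes. Trex1, the cytosolic DNA exonuclease, was that 1 gene at 3.14 and 13.0 FPKM, 4.13-fold higher (3.28 to 5.29). Tnfaip3, the ubiquitin editor A20, stood at 0.801 and 4.17 FPKM, and Samhd1, a dNTP hydrolase, at 7.07 and 17.1 FPKM. Of the 4 higher genes, Tnfaip3 passed the filter only through its knockout value. The most abundant of the 10 by mean level was Ptpn6, the phosphatase SHP-1, at 11.0 and 17.1 FPKM. This list had a median log2 ratio of 0.92 (0.36 after centring).

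Further type I induced genes were often higher in the knockout library. Of 27 past the filter, 16 were at least 2-fold higher and 0 lower, beside 19.2% and 2.95% of all tested genes, with 9 and 0 after centring, beside 5.67% and 6.66%. Phf11d, Oas1g and Ifi205, counted in both the 16 and the 9, passed the filter only through their knockout value. Phf11d stood at 0.632 and 6.39 FPKM and Ifi204, a DNA-binding protein of the p200 family, at 1.61 and 10.7 FPKM, 10.1-fold (7.44 to 14.1) and 6.64-fold higher (5.61 to 7.99). The most abundant was Ifitm2, given above with its family. Of 14 further interferon gamma induced genes past the filter, 5 exceeded 2-fold upwards and 1 downwards, and 1 and 3 did after centring. Of the 5 higher genes, Gbp4, Gbp8 and Cd274 passed the filter only through their knockout value. The 1 lower as deposited and the 1 higher after centring are near the same shares of all tested genes. Cxcl10, a chemokine induced by both interferon types, had 55 and 1482 reads, or 1.88 and 51.3 FPKM, 27.3-fold higher (20.8 to 36.4). Socs2, which is better known as a growth hormone target, stood at 15.1 and 4.70 FPKM, 3.20-fold lower (2.91 to 3.52).

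**Figure D5:**
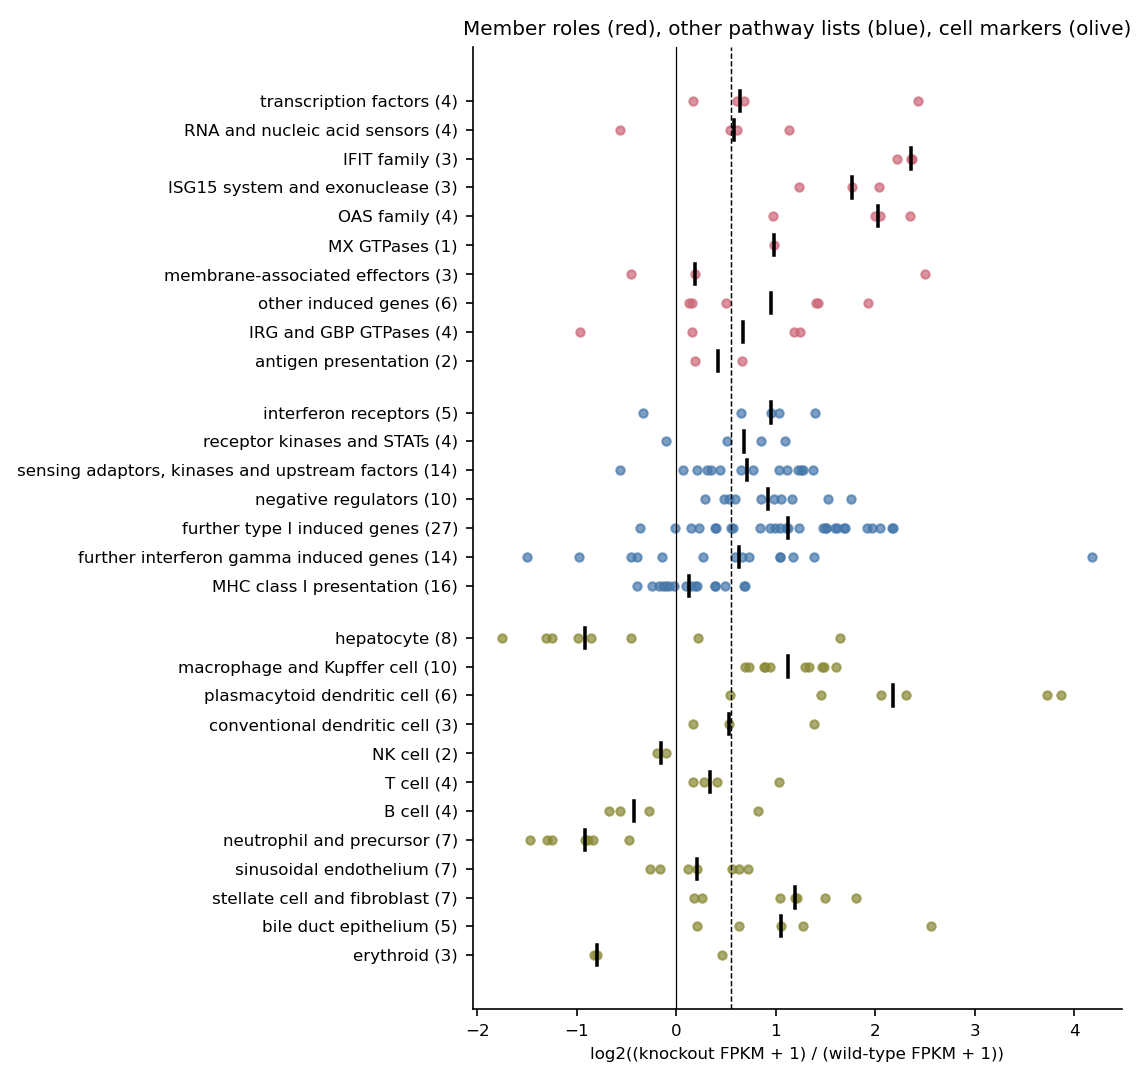
Log2 ratio, knockout over wild-type with 1 FPKM added, of each gene past the filter (dots) and the median of each list (black bars), for roles of the interferon response genes (red), other interferon pathway lists (blue) and cell type markers (olive), with the number of genes in brackets. The solid line is 0 and the dashed line the median of all tested genes. The IFIT and OAS medians are 2.36 and 2.02 and the macrophage marker median 1.12. Most genes of the plasmacytoid dendritic cell list passed the filter only through their knockout value, so its median is not read. The MHC class I presentation median of 0.12 lies left of the dashed line. Exocrine pancreas and skeletal muscle markers are left out of the plot.

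Markers of immune and other liver cells also differed between the libraries. Of 10 measured macrophage and Kupffer cell markers, 5 were at least 2-fold higher in the knockout library and 1 was after centring, beside 19.2% and 5.67% of all tested genes. Their plain ratios ran from 1.63 to 3.07, all above 1 where 84.5% of all tested genes had a log2 ratio above 0, with a summed level of 393 and 989 FPKM and 0 markers at 0 reads. Clec4f, specific to Kupffer cells, stood at 43.0 and 70.1 FPKM, and C1qb, a complement chain of macrophages, at 74.5 and 229 FPKM. Plasmacytoid dendritic cells are known as strong producers of type I interferon, and 7 markers of them were measured. Of these, 4 (Siglech, Ccr9, Klk1 and Cox6a2) passed the filter only through their knockout value, so no count of them is read. Siglech, their defining receptor, had 20 and 280 reads, or 0.315 and 4.46 FPKM, 14.2-fold higher (8.999 to 23.6), and Ccr9 stood at 0.136 and 2.12 FPKM. The summed level of that list was 7.24 and 84.4 FPKM, most of it from Ly6d and Klk1, which epithelia and exocrine glands also express. Cox6a2, at 0.343 and 5.67 FPKM, is also a gene of striated muscle, whose markers are given above. Tcf4, another marker of the list, had 658 and 1038 reads, or 3.26 and 5.20 FPKM, and was not past 2-fold. Its log2 ratio of 0.54 was -0.01 after centring. Pacsin1, at 0.134 and 0.595 FPKM, did not pass the filter. Bst2, another gene used to mark plasmacytoid dendritic cells, was not past 2-fold either, as given above. The summed NK cell markers stood at 5.27 and 5.33 FPKM, T cell markers at 3.91 and 7.55 FPKM, B cell markers at 11.1 and 8.76 FPKM and conventional dendritic cell markers at 2.40 and 6.95 FPKM. Neutrophil and precursor markers summed to 218 and 112 FPKM and sinusoidal endothelial markers to 139 and 169.8 FPKM. Stellate cell and fibroblast markers summed to 173 and 469.7 FPKM, bile duct markers to 33.9 and 69.0 FPKM, and erythroid markers to 413 and 234 FPKM. The part of any of these cells in the interferon response values was not tested.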

How the data were processed

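Liver RNA was sequenced in 1 library per genotype, grouped by the genotype label. The submitters' processing notes name Bowtie 0.12.2 and the mouse build mm9. The sources used here do not give the counting program, annotation release, use of strand or handling of reads with several matches. Per the file headers, the authors deposited whole-number read counts and FPKM values by RefSeq accession. Accessions were named from a RefSeq table of GRCm38.p6 by transcript (23223), by protein (75) or through GENCODE tables (121), and summed per gene. A log2 ratio compares knockout with wild-type FPKM after adding 1 to each, and genes were tested when they reached 1 FPKM in a library. Folds are FPKM ratios without that addition. Their 95% intervals are exact (Clopper-Pearson) for the reads and were multiplied by 1.012, the ratio between the tables in FPKM per read. Reads of amplified libraries are not independent molecules, so intervals cover counting error only. The computation was tested on simulated libraries. All measured members are named. From other pathway lists the most abundant gene and the 2 with the largest absolute log2 ratio were to be named, with each ligand that had reads, and genes outside this rule were chosen after their values were seen. One result of a pathway list is not reported here. Members and lists were chosen with earlier results of these data known. Alternatives changed the pseudocount, scaling, filter, size rule or accession. Software was matplotlib 3.10.9, scipy 1.17.1 and pandas 2.3.3 under Python 3.11.15.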

Additional observations from a re-analysis of the deposited data

How the results depend on the processing

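The 17 genes at least 2-fold higher became 11 with a pseudocount of 5 FPKM or after centring, and 8 by a 4-fold rule, beside 6.30%, 5.67% and 2.76% of all tested genes. The 0 lower became 1 with a pseudocount of 0.1, on read shares or by a 1.5-fold rule, and 3 after centring. The matching shares of all tested genes were 3.71%, 3.17%, 5.51% and 6.66%. The median log2 ratio of 1.06 became 1.47 and 0.53 with pseudocounts of 0.1 and 5, and 0.50 after centring. Over all tested genes these medians were 0.68, 0.30 and 0. It became 1.31 on the TPM scale and 1.37 on read shares, beside 0.63 and 0.64 over all tested genes. With a filter of 5 FPKM it was 0.68, close to the 0.60 of all tested genes. Fewer genes (27) passed that filter, and the cause of the other shifts was not tested. At the other settings run the higher count lay between 13 of 27 (filter of 5 FPKM) and 23 of 34 (1.5-fold rule). The shares of all tested genes moved too, to 22.6% and 47.4% at these settings. With a pseudocount of 0.1, on the TPM scale and on read shares the count was 19, beside 30.4%, 25.3% and 26.8%. No gene past 2-fold changed direction in these settings. Of those not past it, 8 changed sign after centring. Of 90 other pathway genes past the filter, 34 were at least 2-fold higher, and these became 12 with a pseudocount of 5 and 11 after centring. The shares of all tested genes were 19.2%, 6.30% and 5.67%. Of the 34, Tlr7, Tlr9, Tnfaip3, Oas1g, Ifi205, Phf11d, Gbp4, Gbp8 and Cd274 passed the filter only through their knockout value. Oas1g, Ifi205 and Phf11d are also among the 11. These alternatives for the pathway genes were added after the data were seen. No paired analysis was possible because each genotype has 1 library. Genes under about 100 reads, such as Isg15 and Oas1a in the wild-type library, have the widest intervals.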

Other observations

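Further type I induced genes not yet described include 4 that were at least 2-fold higher as deposited and were chosen here after their values were seen (Slfn2, Slfn5, Trim30a and Cmpk2). Slfn2 and Slfn5, members of a family linked to the control of cell growth, stood at 3.96 and 19.5 FPKM (Slfn2) and at 3.18 and 10.9 FPKM (Slfn5, with a centred log2 ratio of 0.95 that was not past 2-fold). Trim30a, a ubiquitin ligase, stood at 2.71 and 11.0 FPKM, and Cmpk2, a mitochondrial nucleotide kinase encoded beside Rsad2, at 1.05 and 5.22 FPKM. Other genes of the same list differed little. Dtx3l and Parp9, partners in a ubiquitin ligase complex, stood at 9.58 and 9.50 FPKM (Dtx3l) and at 8.95 and 10.6 FPKM (Parp9), and Eif2ak2, the RNA-activated kinase PKR, at 3.41 and 5.44 FPKM, with a centred log2 ratio of -0.01. Cd274, which encodes PD-L1, stood at 0.653 and 2.74 FPKM, 4.19-fold higher (3.17 to 5.61). Nos2, the inducible nitric oxide synthase, did not pass the filter, with 1 and 66 reads or 0.00937 and 0.626 FPKM. Its plain ratio of 66.8 has an interval from 11.6 to 2678, and its log2 ratio with 1 FPKM added was 0.69.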
